A study of Mus musculus with 7 samples.

Results

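Cyp4f18 and 9 other genes of leukotriene and prostaglandin metabolism were followed in RNA sequencing of mouse spleen cells. The 10 genes are rows of the deposited expression table, out of 23508 rows with a full estimate in every library. They are 4 cytochrome P450 genes of the Cyp4f family (Cyp4f18, Cyp4f13, Cyp4f16, Cyp4f17), the leukotriene genes Alox5, Alox5ap, Lta4h and Ltc4s, the cyclooxygenase gene Ptgs1 and the receptor gene Ltb4r1. Cyp4f18 was chosen by its FPKM difference between knockout and wild type libraries, and the others were chosen by their function with their FPKM differences already known. The contrast between the genotypes is therefore given for the 10 genes as a description, with no test.

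The cells were splenocytes of C57Bl/6 mice left after magnetic removal of cells with CD43, a surface protein found on T cells, myeloid cells and activated B cells. The study compared 4 libraries labelled CD19creFoxp1 cKO with 3 labelled wild type (B6 WT), to see how the B cell transcriptome differs without the forkhead transcription factor Foxp1. The Cre of this line is driven in the B lineage, so the deletion is aimed at B cells, and other cells of the preparation should keep the gene. The labels give neither age nor sex, do not say whether each library is 1 animal, and name no Cre-bearing control, so what the Cre does and what the loss of Foxp1 does cannot be told apart. Any p-value measures the spread between these libraries, which may be technical.

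Leukotrienes are lipid messengers made from arachidonate. Phospholipase A2 releases arachidonate from membranes, the product of Alox5 oxidises it with the help of the Alox5ap protein (FLAP), and the unstable intermediate becomes leukotriene B by Lta4h or, joined to glutathione, leukotriene C by Ltc4s. Leukotriene B attracts neutrophils and other leukocytes through the receptor made from Ltb4r1, and in mouse neutrophils the Cyp4f18 enzyme hydroxylates it. Ptgs1 opens the branch that leads to prostaglandins and thromboxane.

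Values are FPKM, in which the fragments of a gene are divided by transcript length and by library size. Libraries ran on lane 5 (cKO 1, cKO 4, wild type 2, wild type 3) or lane 7 (cKO 2, cKO 3, wild type 1), per the description labels. FPKM give the number of fragments only indirectly. The most frequent low value of FPKM times length in single-transcript genes, which approximates the weight of 1 fragment, was 0.0157 to 0.0249 over the cKO libraries and 0.0176 to 0.0212 over the wild type libraries. One library stands apart: of the FPKM total, small RNA genes took 10.6% in cKO 4, whereas elsewhere they took 41.1% to 59.6%. Foxp1 was lower in every cKO library, at 21.9 ± 4.90 FPKM (SD, n = 4) against 38.1 ± 4.66 FPKM in wild type (SD, n = 3), with an adjusted p of 0.159 in limma over all genes. With the lane as a covariate it passed the threshold (log2 difference -0.75, limma adjusted p = 0.010). B cell markers were abundant in all libraries, with Cd79b, a subunit of the B cell receptor, at 611.4 to 775.4 FPKM in cKO and 1051 to 1141 FPKM in wild type.

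The start regions of the 3 Cyp4f genes with the highest levels are shown. Of these relatives, Cyp4f18 and Cyp4f16 differed in opposite directions between the genotypes and Cyp4f13 overlapped, as described below. RefSeq promoter windows (GRCm38.p6, 250 bases before to 50 after the start) were matched for 8 of the 10 genes. Capitals mark the CCAAT box, written ATTGG on this strand, and the GC box CCGCCC. The windows are chr8:72009577-72009876 (minus strand) for Cyp4f18, chr17:32536307-32536606 (plus strand) for Cyp4f16 and chr17:32947312-32947611 (minus strand) for Cyp4f13.
Cyp4f18: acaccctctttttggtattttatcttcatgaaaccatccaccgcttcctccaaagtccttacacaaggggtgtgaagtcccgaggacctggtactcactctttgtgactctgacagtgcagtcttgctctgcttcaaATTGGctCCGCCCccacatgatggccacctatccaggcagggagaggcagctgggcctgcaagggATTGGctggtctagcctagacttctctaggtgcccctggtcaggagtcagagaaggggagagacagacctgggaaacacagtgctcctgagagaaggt
Cyp4f16: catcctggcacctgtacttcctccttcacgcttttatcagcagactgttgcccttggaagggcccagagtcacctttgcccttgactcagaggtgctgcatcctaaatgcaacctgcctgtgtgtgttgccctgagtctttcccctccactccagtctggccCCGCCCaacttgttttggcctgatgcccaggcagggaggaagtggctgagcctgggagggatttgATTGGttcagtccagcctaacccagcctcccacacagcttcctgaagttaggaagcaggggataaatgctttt
Cyp4f13: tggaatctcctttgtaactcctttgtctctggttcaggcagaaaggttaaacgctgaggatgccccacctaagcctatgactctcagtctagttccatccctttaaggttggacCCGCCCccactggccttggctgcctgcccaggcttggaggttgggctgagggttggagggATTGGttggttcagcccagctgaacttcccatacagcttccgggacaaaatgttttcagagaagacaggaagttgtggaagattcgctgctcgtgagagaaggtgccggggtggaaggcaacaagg

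All 3 windows hold a GC box followed by a CCAAT box, and the distance from the start of the GC box to the start of the last CCAAT box is 58 bases in Cyp4f18, 65 in Cyp4f16 and 60 in Cyp4f13. Cyp4f18 has a second CCAAT box just before its GC box, which the windows of the other two lack. On either strand, 37.4% of 32851 RefSeq windows hold ATTGG and 35.7% hold CCGCCC, so each alone is common. For the forkhead motif, 3 spellings were searched on both strands and were in 0 of the 8 windows, which says only that these letters are not there. Of all windows, TGTTTAC was in 3.65%, the spelling TATTTAC in 3.04% and the spelling TGTTTGC in 5.07%. The letters GAGGAA, a spelling of the site bound by ETS factors, were in 7 of the 8 windows and in 28.3% of all windows. The Cyp4f13 window lacks this spelling but holds the shorter GGAA, and other spellings were not searched.

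Cyp4f18 (chromosome 8, 71988482 to 72009626, GRCm38 coordinates as in the table) was the most abundant of the 10 genes in wild type and ranked below Alox5ap and Lta4h in cKO. It stood at 16.1, 12.4, 13.8 and 22.2 FPKM in cKO 1 to 4, against 31.5, 48.1 and 46.9 FPKM in wild type 1 to 3. The highest cKO library lay below the lowest wild type library. The means were 16.1 ± 4.31 FPKM in cKO (SD, n = 4) and 42.2 ± 9.29 FPKM in wild type (SD, n = 3), a ratio of 0.382. The difference of log2(FPKM + 0.5) was -1.37 (SE 0.27, from the residuals of the gene), with -1.31 within lane 5 and -1.23 within lane 7.

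Cyp4f16, a second P450 of the family, went the other way. It was 7.27, 3.27, 3.89 and 10.9 FPKM in cKO 1 to 4, against 1.48, 2.49 and 3.00 FPKM in wild type 1 to 3. The groups did not overlap, although the lowest cKO library and the highest wild type library nearly met. Its log2 difference was 1.17 (SE 0.48). In the GENCODE M21 transcripts, 26.5% of the 50-base windows of Cyp4f16 also occur in other genes, mostly in Cyp4f37, which is not analysed here, so some of its reads may belong there. For Cyp4f18 that share was 5.81%, nearly all of it with Zfp961, which overlaps 181 exon bases on the other strand and stood at 5.73 ± 2.89 FPKM in cKO (SD, n = 4) and 8.69 ± 2.42 FPKM in wild type (SD, n = 3).

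Cyp4f13 overlapped between the genotypes. It was 3.22, 1.51, 1.96 and 4.08 FPKM in cKO 1 to 4, against 2.76, 3.92 and 4.63 FPKM in wild type 1 to 3. Its log2 difference of -0.47 (SE 0.36) was close to its error. Cyp4f17 was low throughout, at 0.117 to 0.384 FPKM in cKO and 0.0842 to 0.261 FPKM in wild type, which is roughly 14.0 to 57.0 fragments a library by the weight above. Its groups overlapped too. Of the 9 family genes in the table, these were the 4 in the set. Cyp4f18 made up 59.2% to 71.1% of the summed FPKM of the family in cKO and 85.4% to 87.9% in wild type.

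A ratio of 2 genes within a library is free of library scaling, and 3 such measures, chosen after the values were seen, are plotted by library below. Cyp4f16 over Cyp4f13 was 2.26, 2.16, 1.99 and 2.67 in cKO 1 to 4, against 0.539, 0.633 and 0.649 in wild type 1 to 3. Each gene alone varied between lanes. The genotypes did not overlap in this ratio, nor in Cyp4f16 alone, so the ratio adds no separate evidence. Alox5ap over Cyp4f18 was 2.67, 2.41, 2.58 and 3.04 in cKO 1 to 4, against 0.434, 0.310 and 0.330 in wild type 1 to 3. All 4 cKO libraries thus held more FLAP transcript than Cyp4f18 transcript per length, and all 3 wild type libraries held less.

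The Cyp4f18 level was also lower relative to B cell genes. Its log2 level minus the mean log2 level of 8 B cell markers was -2.79, -2.37, -2.44 and -2.83 in cKO 1 to 4, against -1.96, -1.89 and -2.04 in wild type 1 to 3. The groups did not overlap on this scale. The 8 markers themselves had a median log2 difference of -0.67 and all were negative, with 0 called lower by limma. In these bulk samples fewer cells of a type and less RNA per cell cannot be told apart.

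**Figure D1:**
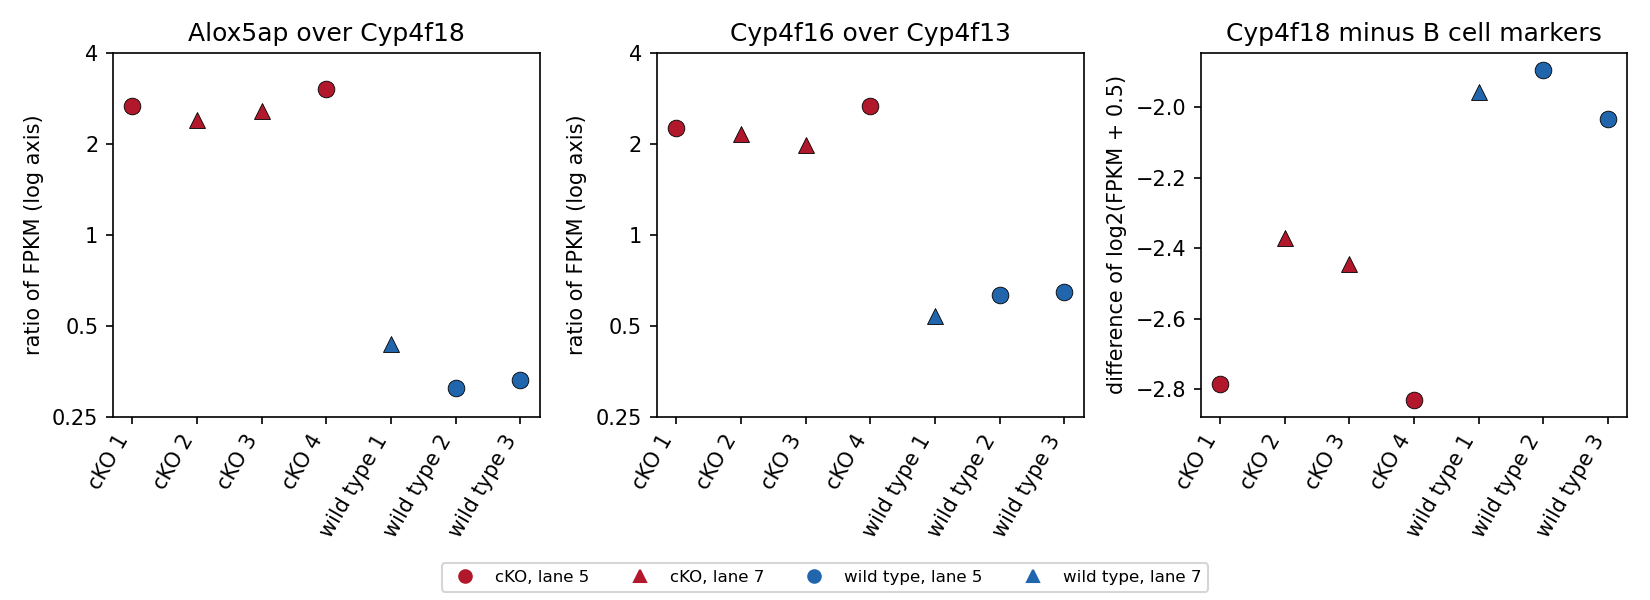
Measures within each library, cKO 1 to 4 on the left and wild type 1 to 3 on the right of each panel, with circles for lane 5 and triangles for lane 7. The first 2 panels show ratios of FPKM on a log axis and the third the log2 level of Cyp4f18 minus the mean of 8 B cell markers. Alox5ap over Cyp4f18 lies at 2.41 or above in cKO and at 0.434 or below in wild type, and Cyp4f16 over Cyp4f13 at 1.99 or above in cKO and 0.649 or below in wild type.

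Among the leukotriene genes, Alox5ap, which presents arachidonate to the Alox5 enzyme, was higher in every cKO library. It stood at 42.9, 29.9, 35.6 and 67.3 FPKM in cKO 1 to 4, against 13.6, 14.9 and 15.5 FPKM in wild type 1 to 3. The wild type libraries were close to each other (SD 0.932, n = 3) and the cKO libraries spread widely (SD 16.5, n = 4). The log2 difference was 1.48 (SE 0.30), with 1.79 within lane 5 and 1.23 within lane 7.

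Alox5 itself was barely present. It was 0.340, 0.171, 0.157 and 0.274 FPKM in cKO 1 to 4, against 0.0272, 0.0885 and 0.0511 FPKM in wild type 1 to 3. The groups did not overlap, but the wild type values amount to roughly 5.52 to 15 fragments a library, and the cKO values to 31.8 to 61.6. The ratio of the means was 4.24, while the log2 difference on the scale with 0.5 added was 0.40 (SE 0.11), which understates the change of so low a gene, and it was 1.09 with 0.1 added and 0.225 with 1 added. In wild type, then, the transcript of the helper protein averaged 14.7 FPKM and that of its enzyme 0.0556 FPKM.

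Lta4h, the hydrolase that makes leukotriene B, was abundant in both genotypes and did not separate them. It was 21.7, 10.6, 15.7 and 29.3 FPKM in cKO 1 to 4, against 15.6, 19.3 and 19.5 FPKM in wild type 1 to 3. The wild type values lay inside the cKO range, and the log2 difference was -0.00 (SE 0.37), with 0.37 within lane 5 and -0.27 within lane 7. Ltc4s, which couples the intermediate to glutathione, was low but apart, at 1.22, 1.59, 1.32 and 2.18 FPKM in cKO 1 to 4, against 0.337, 0.249 and 0.270 FPKM in wild type 1 to 3. Its log2 difference was 1.38 (SE 0.17) and its ratio of means 5.52. With so low a gene the number added before the log sets the size, and the difference was 2.09 with 0.1 added and 0.989 with 1 added. These wild type values are roughly 8.42 to 13.7 fragments a library. Reads were not kept by strand, and exons on the other strand overlap 268 bases of Ltc4s (Gm26542), 189 of Alox5ap (Gm19719) and 148 of Ptgs1 (Gm43621), whose reads cannot be told apart from theirs.

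Ltb4r1, the leukotriene B receptor of leukocytes, was 1.42, 1.49, 1.25 and 1.60 FPKM in cKO 1 to 4, against 0.398, 0.220 and 0.577 FPKM in wild type 1 to 3. The cKO libraries were the closest to each other of any of the 10 genes relative to their mean (SD 0.144, n = 4), and the log2 difference was 1.13 (SE 0.15), with 1.69 when 0.1 was added before the log and 0.809 when 1 was added. The ratio of means was 3.61. Ptgs1, cyclooxygenase of platelets and macrophages among others, was 5.61, 10.5, 15.4 and 6.81 FPKM in cKO 1 to 4, against 4.45, 1.54 and 0.757 FPKM in wild type 1 to 3. Its groups did not overlap, but wild type 1 came near the lowest cKO library, and lane 7 was higher in both genotypes. The log2 difference was 2.01 (SE 0.61), with 2.06 within lane 5 and 1.42 within lane 7.

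**Figure D2:**
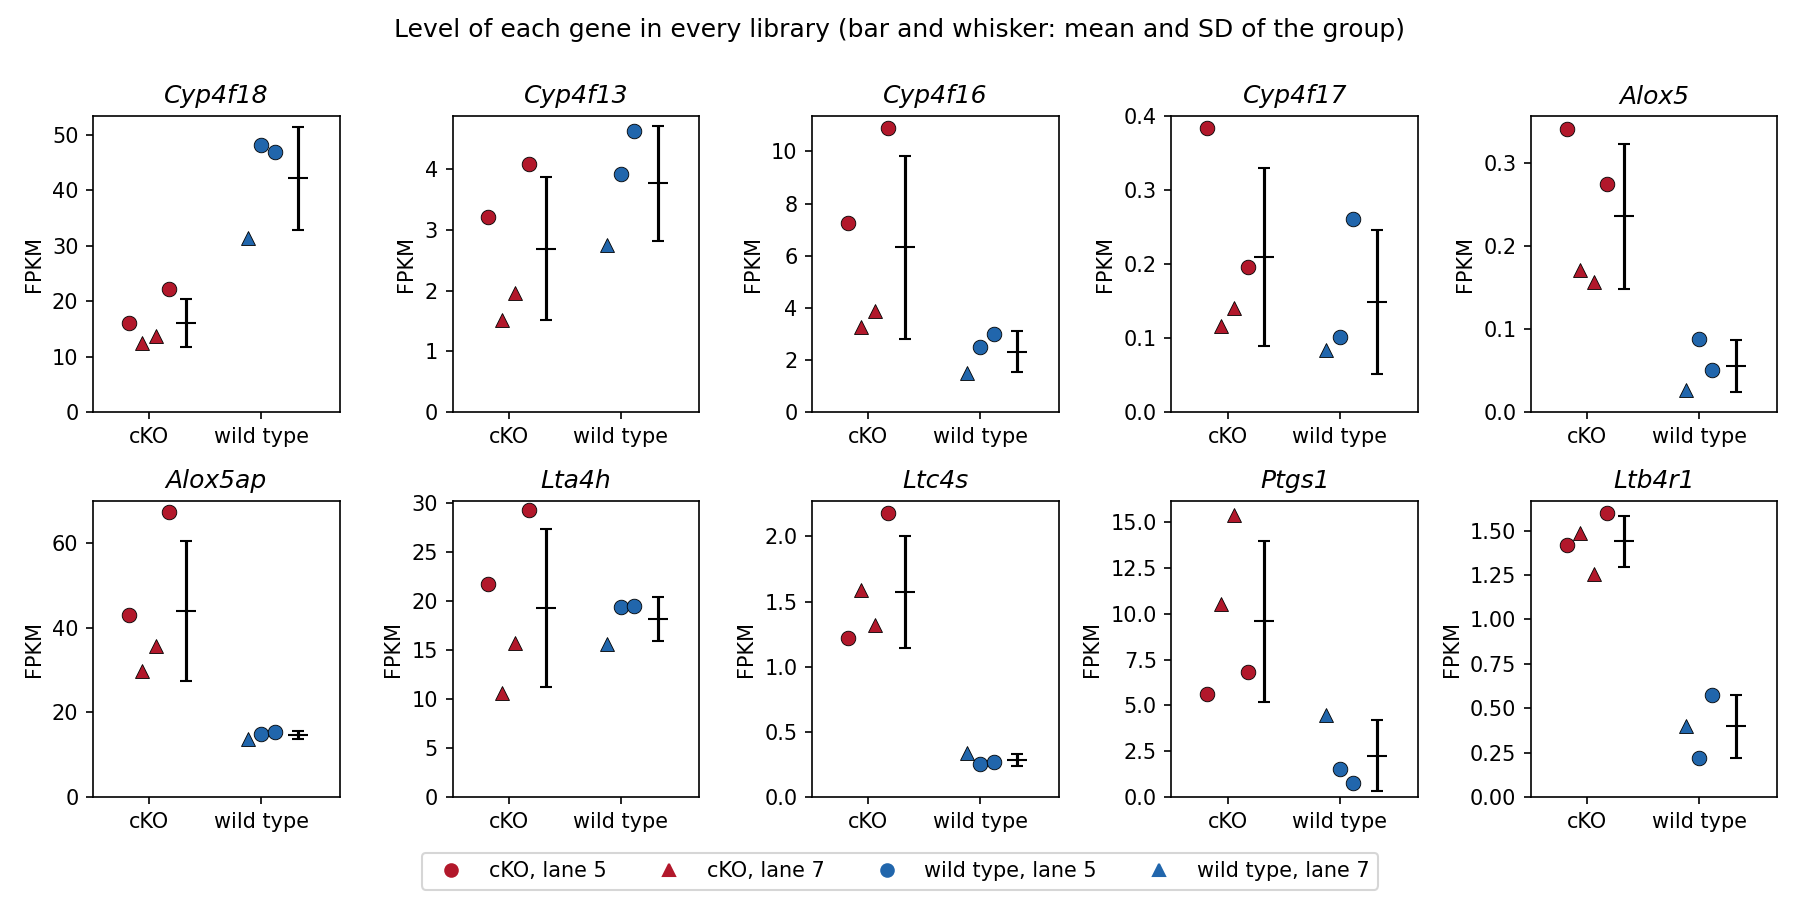
FPKM (linear axes from 0) of the 10 genes in each library, cKO left of wild type, with circles for lane 5, triangles for lane 7 and the mean and SD of each group beside the points. Cyp4f18 sits at 12.4 to 22.2 FPKM in cKO and 31.5 to 48.1 FPKM in wild type, whereas Alox5ap, Ltc4s, Ptgs1, Ltb4r1, Alox5 and Cyp4f16 are higher in every cKO library than in every wild type library.

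By level, the order in cKO was Alox5ap, Lta4h, Cyp4f18, Ptgs1, Cyp4f16, Cyp4f13, Ltc4s, Ltb4r1, Alox5 and Cyp4f17. Ranges over libraries did not overlap between Alox5ap and Lta4h or between Ltb4r1 and Alox5, and all other neighbours in that order overlapped. In wild type the order was Cyp4f18, Lta4h, Alox5ap, Cyp4f13, Cyp4f16, Ptgs1, Ltb4r1, Ltc4s, Cyp4f17 and Alox5. There the ranges of Cyp4f18, Lta4h and Alox5ap each stood clear of the next gene in the order, as did that of Ptgs1, and the other neighbours overlapped.

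With a mean of at least 1 FPKM over the 7 libraries, 7 of the 10 genes entered the fit over all genes, and Alox5, Cyp4f17 and Ltb4r1 did not. Ltc4s, at a mean of 1.02, passed only through its cKO values. Groups were apart for 4 of the 7 upward, against 7.99% of all genes, and for 1 downward, against 2.14%. The genes were chosen with these values known, so nothing is read from these counts.

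Markers of several cell types outside the B lineage also differed between the genotypes. In the monocyte and macrophage list, all 9 genes measured were higher in every cKO library than in any wild type library, 4 called by limma, and their summed level was 477.5 to 641.4 FPKM in cKO against 117.2 to 220.8 FPKM in wild type. In the neutrophil list 9 of 10 genes were apart in that direction, 2 called, and the sum was 88.7 to 197.2 FPKM in cKO against 28.8 to 41.5 FPKM in wild type. The platelet and megakaryocyte sum was 38.0 to 111.1 FPKM in cKO against 21.0 to 38.5 FPKM in wild type, with 3 of 6 genes apart and 0 called, and the sums overlapped between cKO 1 and wild type 1. None of these markers was at 0 in all libraries. Over all genes tested, 7.99% were apart upward and 1.27% were called higher. The neutrophil count holds Ltf and Mmp8, which were under a mean of 1 FPKM and not tested. Of the called genes, Fcgr1 and Mpo had wild type means under 1 FPKM and entered the fit only through their cKO values. So did Camp, Elane, Retnlg and Csf3r, which were apart but not called. Among the neutrophil genes that were apart, only S100a8 and S100a9 had wild type means above 1 FPKM, so that count is not comparable with the share of all genes. In many tissues Alox5, Alox5ap, Ltc4s and Ltb4r1 are genes of myeloid cells and Ptgs1 of platelets and macrophages, and the part of these cells in the values above was not tested. Mast cell and basophil markers summed to 0.858 to 6.35 FPKM in cKO and 0.135 to 0.491 FPKM in wild type.

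Dendritic markers summed to 18.1 to 67.7 FPKM in cKO against 9.38 to 17.2 FPKM in wild type. Of these, 3 of 6 genes were apart upward (7.99% of all genes), among them Xcr1, whose wild type mean of 0.991 FPKM lay under the filter. NK cell markers summed to 34.5 to 75.2 FPKM in cKO against 15.4 to 19.1 FPKM in wild type. There 4 of 6 were apart upward and 1 was called higher by limma (1.27% of all genes). Klrb1c, apart but not called, had a wild type mean of 0.513 FPKM and entered the fit only through its cKO values. T cell markers, at 16.8 to 53.3 FPKM in cKO and 14.6 to 25.8 FPKM in wild type, and erythroid markers, at 82.3 to 2223 FPKM in cKO and 68.1 to 739.4 FPKM in wild type, overlapped. Eosinophil markers overlapped as well, at 12.8 to 26.8 FPKM in cKO and 3.22 to 16.0 FPKM in wild type. The erythroid sum was low in cKO 4 alone among the cKO libraries. In that library Alox5ap, Lta4h, Ltc4s, Ltb4r1 and Cyp4f16 were at their highest. The median log2 level of all tested genes was also highest there, at 3.33. The B cell sum was 1239 to 1962 FPKM in cKO against 2091 to 2491 FPKM in wild type.

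The rest of the arachidonate pathway moved unevenly. Of 66 listed genes 64 were in the table, and 34 of these stayed under a mean of 1 FPKM, among them most lipoxygenases and prostanoid receptors. Apart from the 10 genes, 23 were tested, and 2 were called higher (against 1.27% of all genes) and 0 lower (against 0.0497%), with 11 at an unadjusted p under 0.05 in limma, beside 1073 of all 10065 genes. The groups were apart for 9 upward (7.99% of all genes) and 1 downward (2.14%). Their median log2 difference was 0.62, beside -0.09 over all genes tested. Once the lane entered the fit, limma called 10 of the 23 higher (9.59% of all genes) and 1 lower (1.19%). Of the genes apart upward, Ptgs2, Ptgis and Ptgr1 had wild type means under 1 FPKM and entered the fit only through their cKO values.

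Both genes called higher lie outside the leukotriene branch, but Alox5ap, Lta4h and Ltc4s of that branch are among the chosen genes and were left out of this count. Pla2g7, which inactivates platelet-activating factor, was 12.03, 13.8, 18.2 and 19.8 FPKM in cKO 1 to 4, against 7.15, 5.80 and 4.03 FPKM in wild type 1 to 3 (log2 difference 1.42, SE 0.27, limma adjusted p = 0.048). Ptgis, prostacyclin synthase, was 1.79, 2.08, 2.75 and 2.25 FPKM in cKO 1 to 4, against 0.792, 0.433 and 0.464 FPKM in wild type 1 to 3 (log2 difference 1.36, SE 0.18, limma adjusted p = 0.047). With any one of the cKO libraries, wild type 2 or wild type 3 left out, 0 pathway genes were called higher by limma, with 15 to 17 of the 30 at an unadjusted p under 0.05. Ptgis was under 1 FPKM in every wild type library and entered the fit only through its cKO values. The monocyte and macrophage sum given above was higher in the same cKO libraries, and its part was not tested.

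Arachidonate release and the prostanoid branch held further genes whose call depended on whether the lane was in the fit. Pla2g15, a lysosomal phospholipase, had a log2 difference of 1.17 (SE 0.26, limma adjusted p = 0.093, and 0.0019 with the lane), while Plaa stood at -0.19 (SE 0.34). Hpgd, which inactivates prostaglandins, was 27.8 ± 8.65 FPKM in cKO (SD, n = 4) and 8.72 ± 8.27 FPKM in wild type (SD, n = 3), and limma gave an adjusted p of 0.143, and 0.0011 with the lane. Its wild type values were uneven, with wild type 1 at 18.2 FPKM, close to cKO 1 at 18.7 FPKM. Ptges3, the most abundant gene of the prostanoid list, overlapped at 24.9 ± 7.66 FPKM in cKO (SD, n = 4) and 26.6 ± 7.41 FPKM in wild type (SD, n = 3).

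Several genes at central steps, named here after their values were seen, depended on the lane in the same way. Pla2g4a, the cytosolic phospholipase that supplies arachidonate, was 3.30 ± 0.639 FPKM in cKO (SD, n = 4) and 1.24 ± 0.524 FPKM in wild type (SD, n = 3), with a limma adjusted p of 0.105, and 0.0019 with the lane. Ptgs2, the inducible cyclooxygenase, was 2.89 ± 0.947 FPKM in cKO (SD, n = 4) and 0.725 ± 0.371 FPKM in wild type (SD, n = 3), with a limma adjusted p of 0.084, and 0.0032 with the lane. The wild type mean of Ptgs2 lay under 1 FPKM, so it entered the fit only through its cKO values. Tbxas1, thromboxane synthase, overlapped between the genotypes because wild type 1 stood at 5.50 FPKM, above the lowest cKO library at 5.39 FPKM, and limma gave an adjusted p of 0.177, and 0.0012 with the lane.

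Ephx1, microsomal epoxide hydrolase, was the one tested pathway gene beside Cyp4f18 with all cKO libraries below all wild type libraries. It was 22.7, 24.1, 29.5 and 33.1 FPKM in cKO 1 to 4, against 51.3, 50.9 and 49.0 FPKM in wild type 1 to 3. The wild type libraries were close to each other across both lanes (SD 1.24, n = 3). Its log2 difference of -0.88 (SE 0.15) missed the limma threshold (adjusted p = 0.091), and the fit with the lane as a term gave an adjusted p of 0.006.

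The 2 genes of the leukotriene list with the highest means, Cotl1 and Mgst3, overlapped between the genotypes. Cotl1, whose protein binds the Alox5 enzyme, was 141.6 ± 33.3 FPKM in cKO (SD, n = 4) and 150.9 ± 23.7 FPKM in wild type (SD, n = 3). Mgst3, a membrane glutathione transferase, ranged from 4.30 to 240.7 FPKM in cKO and from 5.19 to 60.6 FPKM in wild type, and like the erythroid sum it was lowest in cKO 4 and wild type 3. Among receptors, Ptger4, a prostaglandin E receptor, was 13.7 ± 2.02 FPKM in cKO (SD, n = 4) and 6.63 ± 2.66 FPKM in wild type (SD, n = 3) with a limma adjusted p of 0.137, and 0.0089 with the lane, and Tbxa2r, the thromboxane receptor, overlapped. Alox12, a lipoxygenase of platelets, overlapped too, while Alox15, below the mean of 1 FPKM, was 1.03 to 1.60 FPKM in cKO and 0.0558 to 0.356 FPKM in wild type.

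**Figure D3:**
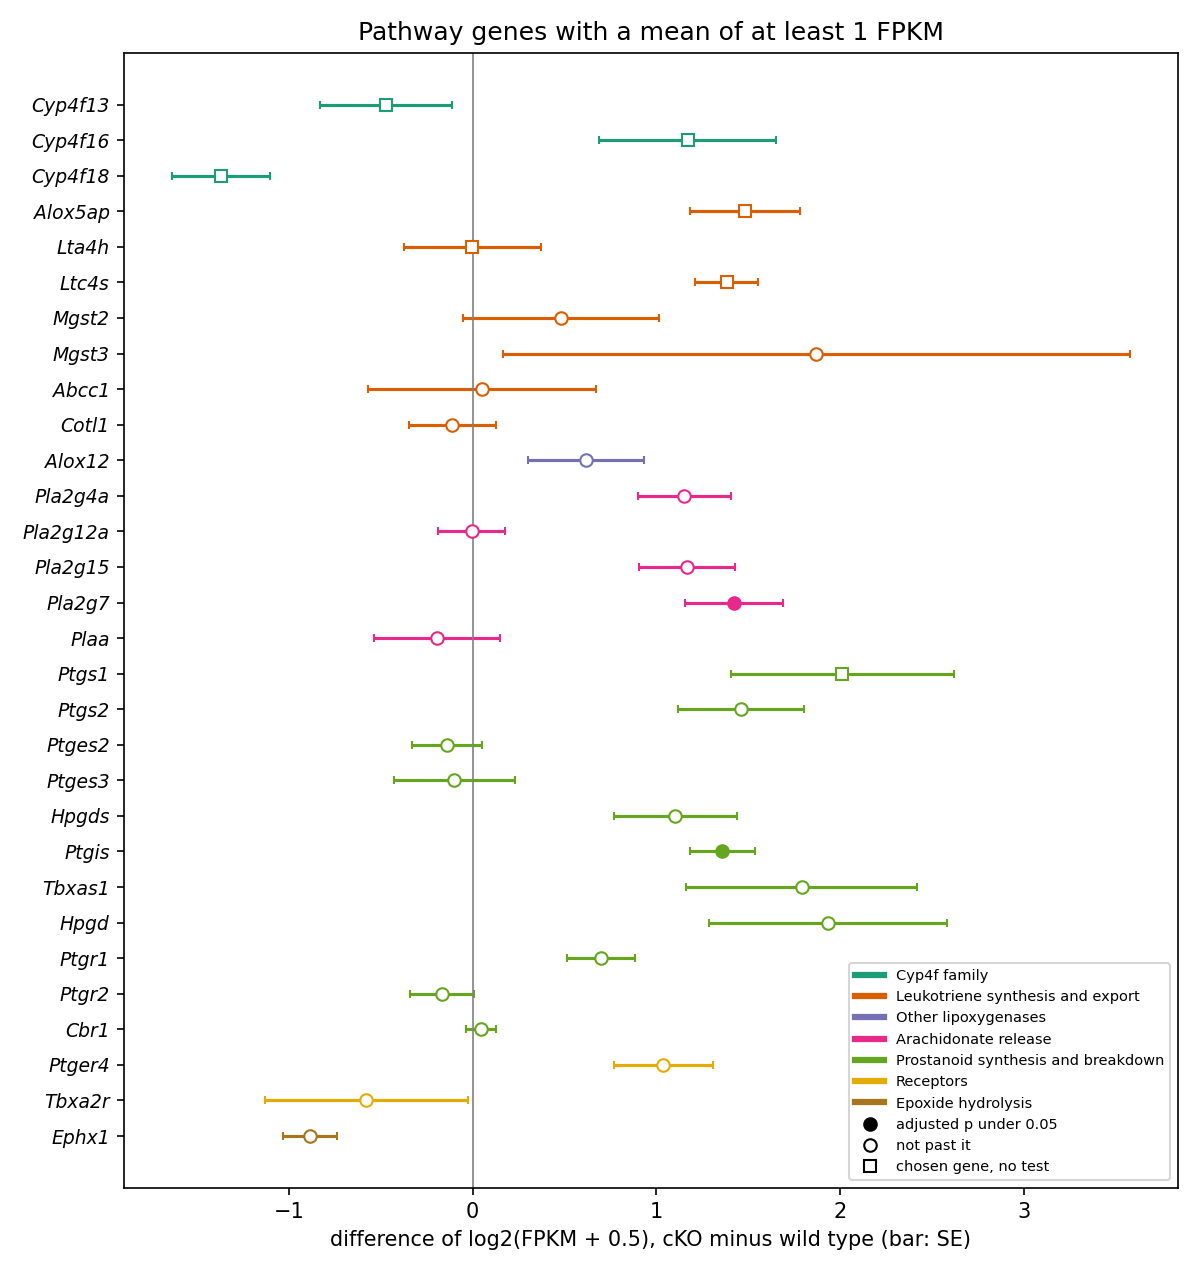
Difference of log2(FPKM + 0.5), cKO minus wild type, for the 30 pathway genes with a mean of at least 1 FPKM, coloured by list, with the SE of each gene as a bar. Squares are the 7 of the 10 chosen genes that entered the fit, shown with no test. Among the circles, filled ones passed an adjusted p of 0.05 in limma, which were Pla2g7 at 1.42 and Ptgis at 1.36.

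The lane was not used to choose the 10 genes, so the difference between lanes was tested, with the genotype in the fit. Lane 7 was lower than lane 5 for most genes: limma called 58.2% of all genes lower and 8.67% higher, and the median over all genes was -0.50 on the log2 scale. Of the 7 tested genes, 5 were called lower (Cyp4f16, Cyp4f13, Lta4h, Cyp4f18 and Alox5ap), a share close to that background. Cyp4f18 stood at -0.54 (SE 0.13, limma adjusted p = 0.012), about the median of all genes, and after each library was centred on its median it stood at -0.05 (limma adjusted p = 0.708). Alox5ap stood at -0.49 (SE 0.23, limma adjusted p = 0.046) and at 0.01 after centring (limma adjusted p = 0.966). The Alox5ap call was also lost without cKO 2, cKO 3, cKO 4, wild type 2 or wild type 3 (limma adjusted p 0.0509 to 0.154), and that of Cyp4f18 without wild type 1 (limma adjusted p = 0.063).

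Only Ptgs1 and Cyp4f16 among the 7 were called between lanes with and without centring. Ptgs1 was higher in lane 7, at 1.24 (SE 0.30, limma adjusted p = 0.0011), and 1.74 after centring (limma adjusted p = 0.0016). Cyp4f16 was lower in lane 7, at -1.01 (SE 0.21, limma adjusted p = 0.0013), and -0.51 after centring (limma adjusted p = 0.017). Both kept their call under every alternative run on the lane fit, except that Cyp4f16 was not tested with the filter at a mean of 5 FPKM. The erythroid sum was 739.4 FPKM or more in lane 7, and 762.2 FPKM or less in lane 5. Lane and preparation cannot be told apart from the labels.

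**Figure D4:**
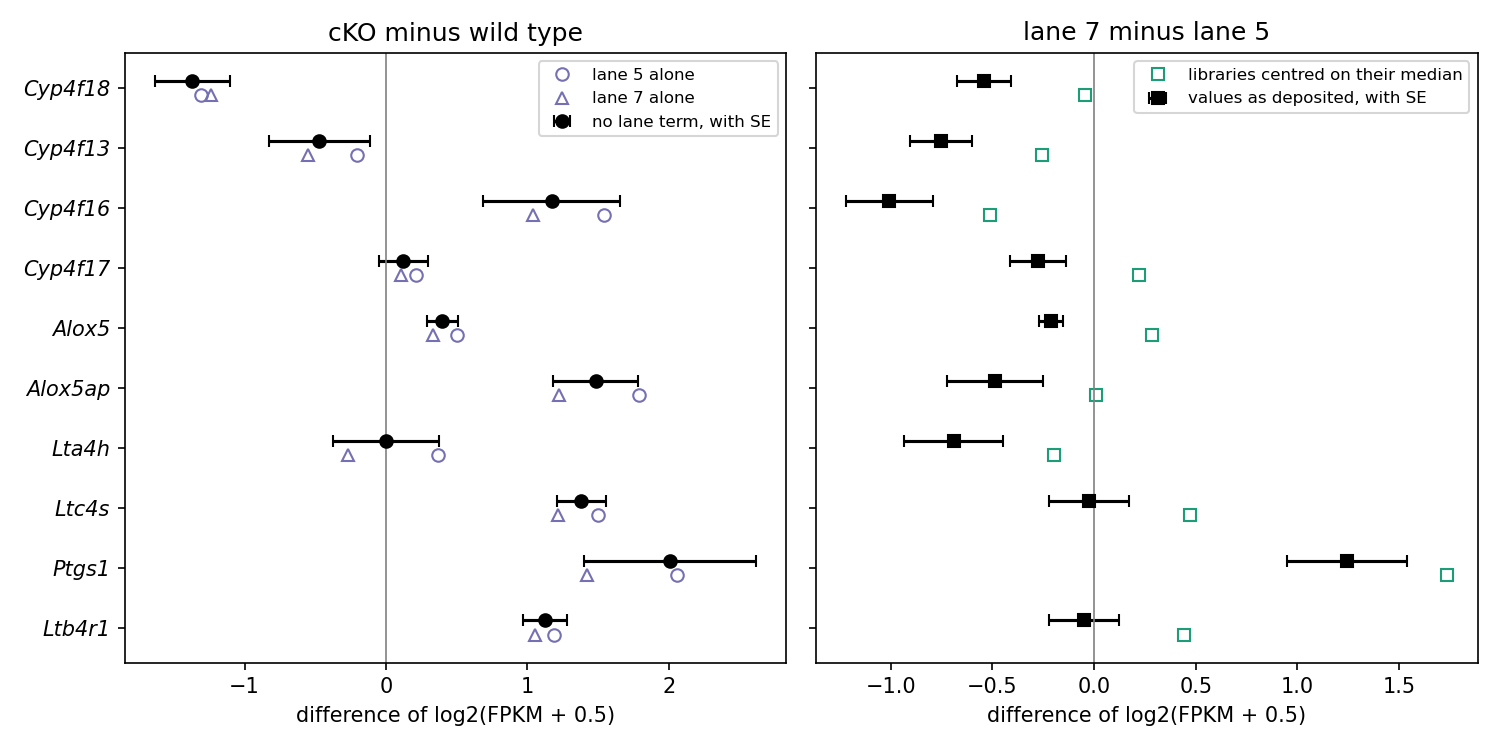
Differences of log2(FPKM + 0.5) for the 10 genes, with cKO minus wild type on the left (filled circles with SE, and open circles and triangles for lane 5 and lane 7 alone) and lane 7 minus lane 5 on the right (filled squares with SE, and open squares after centring each library on its median). Cyp4f18 lies between -1.37 and -1.23 in all 3 genotype estimates, Lta4h changes sign between lanes, and Ptgs1 is the one gene well above 0 between lanes, at 1.24.

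Among the 5 genes whose profiles over the 7 libraries were most like that of Cyp4f18 were Scn4a, Sh3bp5, Stac2 and Ms4a4c. Likeness was the root mean square difference between log2 profiles centred on their own means, which was 0.14 for Scn4a, 0.22 for Sh3bp5 and 0.24 for both Stac2 and Ms4a4c, beside a median of 0.67 over 9504 genes ranked. Scn4a, a sodium channel gene, was 0.812 ± 0.208 FPKM in cKO (SD, n = 4) and 2.81 ± 0.716 FPKM in wild type (SD, n = 3). All libraries share the scaling and the lane with Cyp4f18, so the likeness is a description.

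Within 250 kb of Cyp4f18, 9 other genes were tested, and limma called 0 of them (against 1.32% of all genes). At an unadjusted p under 0.05 in limma there were 0 of the 9, beside 1073 of all 10065 genes. With so few genes, nothing is read from these counts. The log2 differences of the 9 ran from -0.72 to -0.24 with a median of -0.47, all below 0, and the groups overlapped for all 9. Cyp4f18, at -1.37, lay below the lowest of them. The overlapping Zfp961 stood at -0.64 (SE 0.45). Over all 10065 genes tested, 6191 were below 0, with a median of -0.09.

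**Figure D5:**
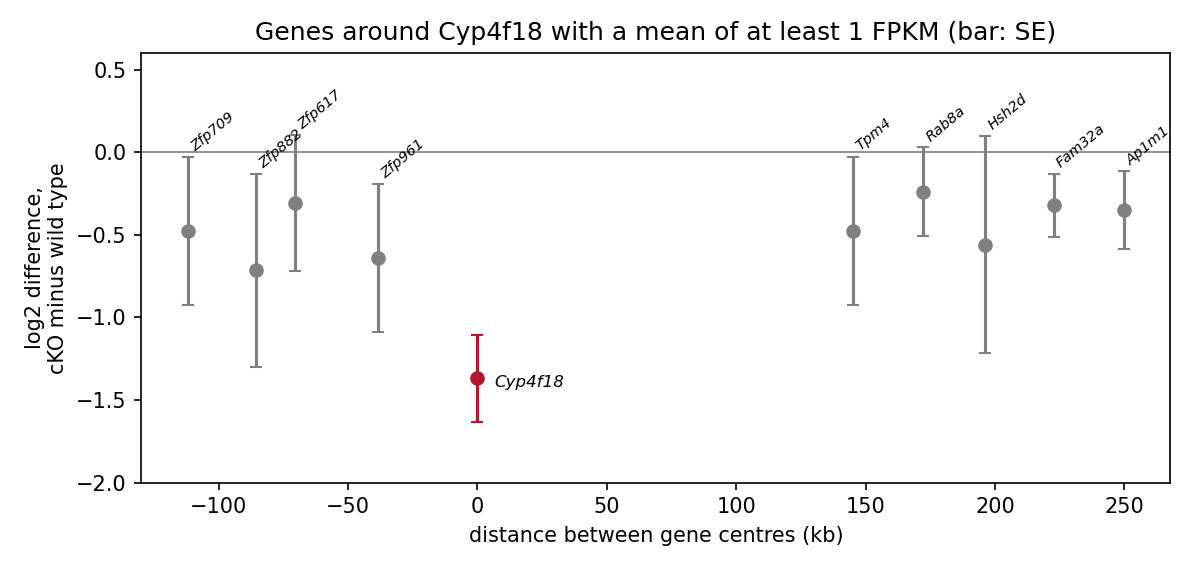
Difference of log2(FPKM + 0.5), cKO minus wild type, with SE, against the distance in kb between gene centres, for Cyp4f18 and the 9 tested genes within 250 kb. Cyp4f18 is at -1.37 and its neighbours lie between -0.72 and -0.24.

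The authors' deposited table compares arms named q1 and q2 made from the same libraries, with no statement of which arm is which genotype. A test was given there, in the authors' deposited table, for 9 of the 10 genes. Of these, 1 had q under 0.05 with a negative statistic (against 1.09% of genes in the authors' deposited table), namely Cyp4f18 with a test statistic of -3.33 and q = 0.0008. A positive statistic with q under 0.05 was given in the authors' deposited table for 6 (against 14.1% of its genes): Cyp4f16, Alox5, Alox5ap, Ltc4s, Ptgs1 and Ltb4r1. Each gene of the 10 that passed had the sign of its cKO minus wild type difference in FPKM. So did Foxp1, with a statistic of -1.39, which did not pass. Cyp4f13 and Lta4h did not pass in the authors' deposited table, with q = 0.261 and q = 0.987. The 10 genes were chosen with their differences in these same libraries known, so these values and counts are no independent support.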

How the data were processed

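RNA of CD43-depleted splenocytes was sequenced as Nextera libraries, per the labels' protocols, a kit that does not keep strand. Per the file headers, the authors deposited an FPKM value and a status flag for every gene in every library. Tools named without role or version in the submitters' processing notes are TopHat2, Cufflinks and Cuffdiff. The build named there is mm9, but positions in the table overlapped the GRCm38 gene for 99.5% of 21232 symbols, so GRCm38 coordinates are given (starts counted from 1). A second deposited table holds the authors' test statistic (a signed score) and q-value per gene. Rows without the status OK in every library (337 of 23845) were left out. The test was limma 3.58.1 (R 4.3.3) on log2(FPKM + 0.5) for the 10065 genes with a mean of at least 1 FPKM, with an eBayes trend, two-sided, with Benjamini-Hochberg adjustment at 0.05. The design had assumed RPKM or FPKM. No covariate was in the genotype fit, and the genotype was in the lane fit. Differences and SEs of single genes come from their own residuals, while p-values use limma's moderated spread. The fits were tested on simulated data. FPKM keep depth only indirectly, so counting error was not given. Group and lane came from titles and descriptions. Figures were drawn with matplotlib 3.10.9.

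The genes, lists and tests were chosen with earlier results of these data known. Named genes are the 10, Foxp1, pathway genes past the threshold or among the 2 most abundant of their list, the 5 most like Cyp4f18 and leading markers, and others are said to be chosen later. Alternatives covered the pseudocount, the filter, scaling, the limma trend, the lane, the replicate number and each library left out. The values of 1 gene named by that rule are not reported here.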

Additional observations from a re-analysis of the deposited data

Results flagged for a closer look

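Among 18 genes checked over the 4 cKO libraries (the 10 genes, Foxp1, the called pathway genes and the 5 genes most like Cyp4f18), 1 had a library at a distance from the rest. By chance alone about 1 group in 20 does. Scn4a was 1.12 FPKM in cKO 4 and 0.680 to 0.740 FPKM in the other cKO libraries, a gap of 0.864 of the range. The cKO 4 library is also the one with the small share of small RNA genes.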

How the results depend on the processing

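Cyp4f18 stayed between -1.57 and -1.23 (log2, cKO minus wild type) over 18 alternatives, and the sign of every other gene of the 10 held in all 18 except that of Lta4h (10 of 18, -0.265 to 0.368). The sizes for Alox5, Ltc4s and Ltb4r1 moved with the pseudocount, as given above, and Ltc4s stood at 1.03 after quantile normalization. Counts of limma calls moved far more, and the cause was not tested. Calls are given as all genes higher, all genes lower, pathway genes higher and pathway genes lower, where the pathway counts include the chosen genes and are no test of them. They were 128, 5, 4 and 1 as reported, 233, 71, 3 and 1 after centring, and 6, 0, 0 and 0 with the filter at a mean of 5 FPKM (504 at an unadjusted p under 0.05). They were 587, 25, 12 and 1 in lane 5 alone, 247, 36, 4 and 0 in lane 7 alone, and 965, 120, 14 and 2 with the lane as a term. Without a filter they were 0, 1, 0 and 0 (2201 unadjusted), with a pseudocount of 0.1 they were 106, 1, 2 and 0, and with a pseudocount of 1 they were 54, 1, 0 and 0. Quantile normalization gave 137, 29, 1 and 2, and limma without a trend 141, 3, 3 and 0. Leaving out 1 library gave 0 to 216, 0 to 4, 0 to 8 and 0 to 1, with 216 without wild type 1 and 0 higher without any other single library (608 to 1967 unadjusted).

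With a replicate block the calls were 0, 0, 0 and 0 (1154 unadjusted). Same-numbered libraries deviated in opposite directions (correlations of -0.407, -0.502 and -0.692). Each such pair lay in opposite lanes, while cKO and wild type libraries of the same lane correlated at 0.293 to 0.736. These correlations therefore cannot tell whether the numbers pair the libraries. Between lanes, 873 genes were higher and 5860 lower, against 2441 and 2407 after centring, 549 and 3698 with the filter at 5, 1809 and 3025 after quantile normalization, and 525 higher with no filter. Leaving out 1 library gave 607 to 925 and 4928 to 5723. The lane difference turned positive for Alox5ap after centring (0.00771) and for Ltc4s after centring (0.47), with a pseudocount of 0.1 (0.0172), after quantile normalization (0.216), and without cKO 3 or cKO 4 (0.0526 and 0.162), within -0.158 to 0.162 over the libraries left out in turn. Lane calls of Cyp4f18, Cyp4f13, Alox5ap and Lta4h were lost after centring. Those of Cyp4f18, Alox5ap and Lta4h were also lost after quantile normalization (limma adjusted p 0.169, 0.322 and 0.0656), and those of Alox5ap and Lta4h with no filter (0.183 and 0.0939). Leaving out 1 library ended the Alox5ap call in 5 cases and the Cyp4f18 call without wild type 1. Alox5, Ltc4s, Ltb4r1 and Cyp4f17 rest on few fragments, which limits their precision.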
